A study of Homo sapiens with 4 samples.

Results

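ETS factors are transcription factors that share the ETS DNA-binding domain, and 10 of their genes were examined here in 4 epithelial cancer cell lines. They are *ELF3*, *EHF* and *ELF5* of the epithelium-specific group, *SPDEF*, *ETS1* and *ETS2*, *ETV1*, *ETV4* and *ETV5* of the PEA3 group, and *ERG*. The genes were chosen by name, as 10 of 20144 protein-coding genes of the annotation, and 18 other genes of the family served for comparison. For each gene and line, the peaks of the histone mark H3K27ac were taken that overlap 1 kb either side of any annotated transcript start (promoter peaks). Peaks within 50 kb of the gene body that lie at no protein-coding gene's promoter were taken as distal peaks. This gave 63 of the 85576 peaks of COLO-205, 94 of the 75468 of DU-145, 119 of the 76093 of OVCAR-3 and 4 of the 14001 of SKOV-3.

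H3K27ac, acetylated lysine of histone H3, marks active promoters and enhancers. It was profiled by ChIP-seq with the antibody ab4729 in the colon cancer line COLO-205 (RPMI), the prostate cancer line DU-145 (Eagle minimal essential medium) and the ovarian cancer lines OVCAR-3 (RPMI 1640) and SKOV-3 (McCoy's 5a), all in medium with FBS and with no treatment named. Each tissue of origin is represented by established lines and each line by 1 library, so a difference between lines cannot be told apart from a difference between libraries, and no replicate error or test can be given. The number of tags behind the peak calls, estimated from the peak values and an assumed genome size, was 22400000 to 36000000 per library.

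The ETS domain reads a short GGAA core, and the bases around it differ little between family members, so that several members can bind the same site. *ELF3*, *EHF*, *ELF5* and *SPDEF* are known from secretory and barrier epithelia, *ERG* from endothelium and from fusions with *TMPRSS2* in prostate cancer. *ETS1*, *ETS2* and the PEA3 group act downstream of ERK signalling, and the repressor CIC and the ubiquitin ligase COP1 hold the PEA3 group down.

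A few of the distal elements of these genes are shown first, because the description of shared and line-specific elements below turns on them. The first set holds, for 4 of the genes, the distal region shared by the most lines and, among those, the one with the closest summits. The capitals mark the 5 bases centred on the summit of each line, and the sequences are the plus strand of GRCh37.
ELF3, downstream, 3 lines, chr1:202016647-202016808: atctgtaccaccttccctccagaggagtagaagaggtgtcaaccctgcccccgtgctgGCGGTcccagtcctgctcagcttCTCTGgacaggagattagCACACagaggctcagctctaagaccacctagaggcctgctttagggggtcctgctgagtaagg
ELF5, intron, OVCAR-3 and SKOV-3, chr11:34523895-34524040: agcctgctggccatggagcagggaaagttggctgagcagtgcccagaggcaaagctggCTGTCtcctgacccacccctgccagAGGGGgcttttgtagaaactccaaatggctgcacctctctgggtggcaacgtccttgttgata
ETS1, intron, DU-145 and OVCAR-3, chr11:128367190-128367345: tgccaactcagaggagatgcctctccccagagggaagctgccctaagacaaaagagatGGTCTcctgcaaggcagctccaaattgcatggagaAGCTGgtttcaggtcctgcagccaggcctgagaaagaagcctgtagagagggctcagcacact
ETS2, upstream, 3 lines, chr21:40170916-40171075: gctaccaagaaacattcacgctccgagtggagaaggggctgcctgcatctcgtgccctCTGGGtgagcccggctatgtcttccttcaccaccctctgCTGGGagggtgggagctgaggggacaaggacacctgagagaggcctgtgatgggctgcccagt

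The summits lie within 41 bp of each other in the *ELF3* element, 25 bp in the *ELF5* element, 35 bp in the *ETS1* element and 39 bp in the *ETS2* element. Over all genes, the median distance between the summits of overlapping distal peaks was 45 bp for OVCAR-3 and SKOV-3, 66 bp for DU-145 and OVCAR-3, 74 bp for COLO-205 and OVCAR-3 and 91 bp for COLO-205 and DU-145. For all shared distal peaks of the 10 genes, the median was 131 bp in 33 pairs of DU-145 and OVCAR-3, 52.5 bp in 10 pairs of COLO-205 and OVCAR-3 and 37 bp in 9 pairs of COLO-205 and DU-145. The elements shown were chosen first for the number of lines and then for close summits, so their distances are no sample of the shared peaks.

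The second set shows 4 of the 5 places where one of 4 searched motifs fell in the summit windows of a pair of lines, with the motif in capitals on whichever strand it was found. The octamer TGAATGAA is bound by CIC, CCGGAAGT is an ETS site and TGACTCA is the site of AP-1, a frequent ETS partner.
ETS1, before the internal starts, chr11:128392596-128392723: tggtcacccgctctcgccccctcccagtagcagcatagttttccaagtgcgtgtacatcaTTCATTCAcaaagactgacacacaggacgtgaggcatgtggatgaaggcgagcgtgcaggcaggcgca
ETS2, upstream, chr21:40138883-40139010: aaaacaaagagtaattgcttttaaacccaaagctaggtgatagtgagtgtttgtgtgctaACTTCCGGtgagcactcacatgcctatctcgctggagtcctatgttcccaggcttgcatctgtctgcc
ETS2, downstream, chr21:40211965-40212091: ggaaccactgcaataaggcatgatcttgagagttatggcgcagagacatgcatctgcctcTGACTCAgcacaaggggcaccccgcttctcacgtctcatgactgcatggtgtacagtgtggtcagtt
ETV4, upstream, chr17:41705741-41705868: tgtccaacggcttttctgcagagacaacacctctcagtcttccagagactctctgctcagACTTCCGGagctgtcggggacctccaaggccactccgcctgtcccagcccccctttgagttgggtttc

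The first 3 of these sequences were in windows of DU-145 and OVCAR-3 and the last in windows of COLO-205 and OVCAR-3. The place not shown was another TGACTCA upstream of *ETS2*, in windows of DU-145 and OVCAR-3. In 300-base windows at the summits, on both strands, TGACTCA occurred in 9 of 74 distal peaks of the 10 genes in DU-145, where 5.5% of all distal peaks had it. It occurred in 8 of 97 in OVCAR-3 (5.17% of all) and in 3 of 54 in COLO-205 (3.31% of all). In DU-145, 7 of the 9 windows belonged to *ETS2*. In promoter windows TGACTCA was found in 3 of 20 for DU-145 (3.08% of all) and 1 of 22 for OVCAR-3 (2.97%). It was found in 1 of 9 for COLO-205 (2.33%) and 0 of 2 for SKOV-3 (2.13%). CCGGAAGT was found in 2 of the 54 distal windows of COLO-205, 1 of the 74 of DU-145 and 2 of the 97 of OVCAR-3, against 0.349%, 0.236% and 0.287% of all distal windows. CAGGAAGT, another ETS site, was found in 0, 1 and 2 of these distal windows (1.65%, 1.95% and 2.06% of all). Neither motif was found in the promoter windows of the 10 genes except for CAGGAAGT in 1 of the 22 windows of OVCAR-3 (1.88% of all promoter windows), at an internal start of *ERG*. TGAATGAA was found in 2 of 20 promoter windows in DU-145, at *ETS1* and *ETS2*, and in 1 of 22 in OVCAR-3, at *ETS1*, where 0.869% and 0.664% of all promoter windows had it. It was in 0 of the 9 promoter windows of COLO-205 and 0 of the 2 of SKOV-3. In distal windows it was near the share of all, with 0 of 54 for COLO-205 (0.694% of all), 1 of 74 for DU-145 (1.01%) and 2 of 97 for OVCAR-3 (0.902%). No promoter window of *ETV4* or *ETV5* held the octamer. A match is a run of letters only, and binding was not measured.

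Of the 10 genes, 4 had a promoter peak in the colon line COLO-205 (51.2% of all protein-coding genes), 7 in the prostate line DU-145 (59.9%), 7 in the ovarian line OVCAR-3 (60.5%) and 2 in the ovarian line SKOV-3 (31.6%), so that each count was within 2 genes of what the share of all genes gives for 10. *ETS2* was the 1 gene of the 10 with a promoter peak in all 4 lines, against 25.2% of genes, and *ELF5* and *ETV1* were the 2 with none in any line, against 24.9%. *ELF3*, *ETV4* and *ETV5* had promoter peaks in COLO-205, DU-145 and OVCAR-3, a pattern shown by 13.0% of genes. *ETS1* had them in DU-145, OVCAR-3 and SKOV-3 (3.82% of genes), *ERG* in DU-145 and OVCAR-3 (9.99%), *EHF* in OVCAR-3 alone (4.63%) and *SPDEF* in DU-145 alone (4.35%). Leaving out SKOV-3, the shortest list, 4 of the 10 genes were marked in all of the other lines, against 38.2% of genes.

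The choice of start mattered for the family. A peak lay within 1 kb of the canonical start of 4 genes for COLO-205 (45.2% of all genes), 5 for DU-145 (56.8%), 4 for OVCAR-3 (57.4%) and 1 for SKOV-3 (29.5%). *ETS1*, *EHF* and *ERG* had no peak there in any line and owed their promoter peaks to other annotated starts. When starts less than 1 kb apart were joined, the 10 genes had 37 start clusters, of which COLO-205 had 7 marked (23.8% of the 62264 clusters of all protein-coding genes), DU-145 14 (27.9%), OVCAR-3 16 (27.1%) and SKOV-3 2 (11.7%). Of the 37, only the *ETS2* canonical cluster was marked in all 4 lines, against 8.65% of all clusters, and 17 were marked in none, against 58.0%.

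**Figure D1:**
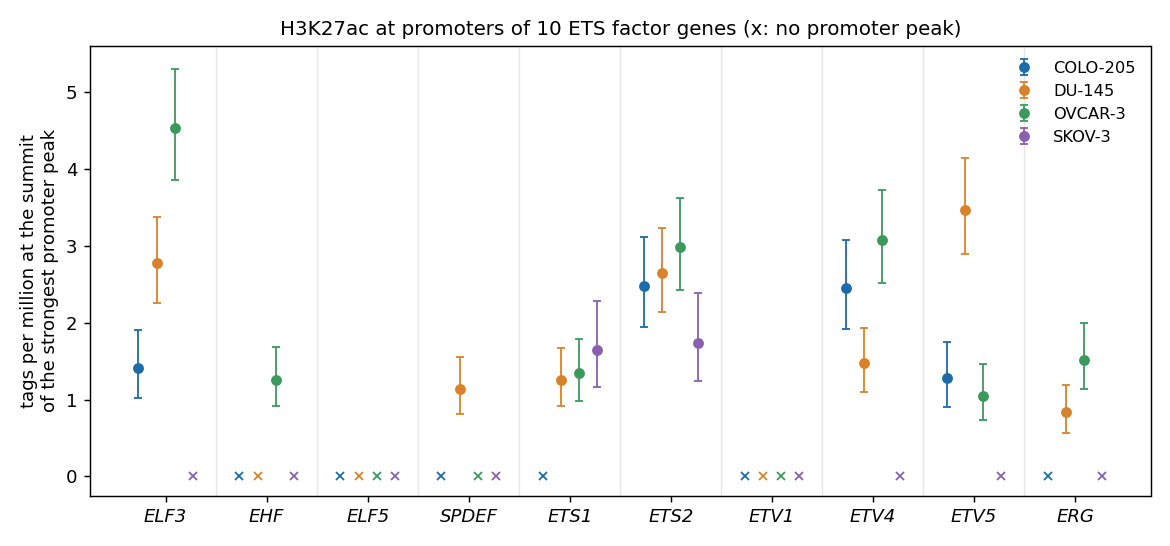
Tags/M at the summit of the strongest promoter peak (vertical axis) for each of the 10 genes (horizontal axis) in the 4 lines, 1 library each. Bars are exact Poisson 95% intervals and crosses at 0 mark lines with no promoter peak; *ELF3* runs from 1.41 in COLO-205 to 4.53 in OVCAR-3, and *ELF5* and *ETV1* have crosses only.

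**Figure D2:**
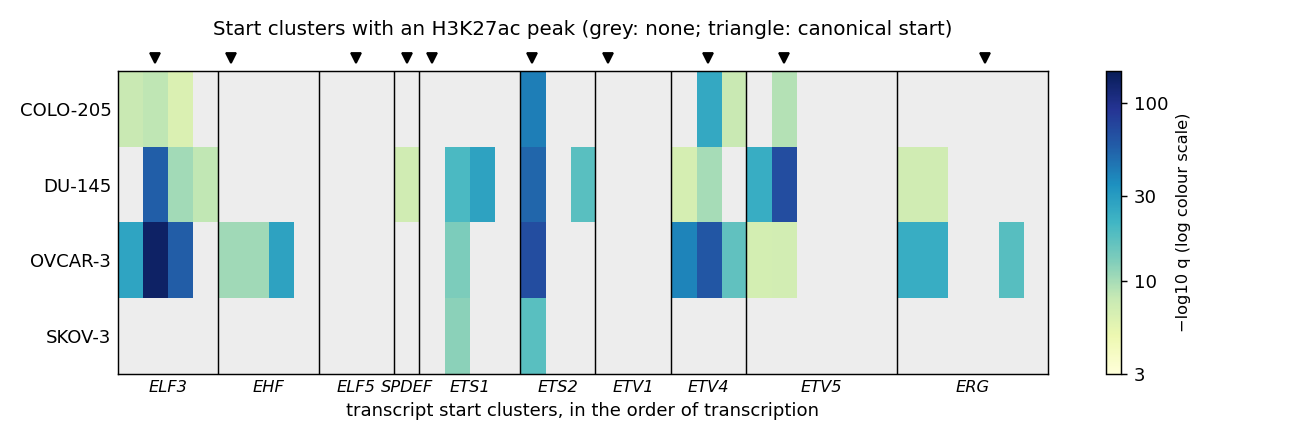
Each column is 1 of the 37 transcript start clusters of the 10 genes and each row a line; colour gives the highest −log10 q of a peak within 1 kb on a log colour scale and grey means no peak. Triangles mark the clusters with the canonical start, which are grey in all 4 rows for *ELF5*, *ETS1*, *ETV1* and *ERG*.

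*ELF3* encodes an epithelium-specific ETS factor of gut, airway and glandular linings (ENSG00000163435.16_9, chr1:201977073-201986311, plus strand). Its strongest promoter peak had a fold enrichment over the local background of 3.23 for COLO-205, 8.66 for DU-145 and 16.9 for OVCAR-3, with a −log10 q of 8.47, 56.4 and 133. The SKOV-3 list had none, and its nearest peak lay 27499 bp from the canonical start. The summit had 42 tags for COLO-205, 100 for DU-145 and 155 for OVCAR-3. Scaled to a library of 1000000 tags (tags/M), these were 1.41 tags/M (exact Poisson 95% interval 1.02 to 1.91), 2.78 (2.26 to 3.38) and 4.53 (3.85 to 5.3). The 3 intervals did not overlap, and they cover counting error only. Fold enrichment and q depend on how well each immunoprecipitation worked, so each was also ranked among the genes with a promoter peak in the same list. By −log10 q, *ELF3* stood at percentile 27.4 in COLO-205, 94.9 in DU-145 and 90.6 in OVCAR-3. By tags/M it stood at percentile 47.8, 88.3 and 86.3, so the place in COLO-205 depends on the measure. The mark reached over more than one start, with peaks at 3 of the 4 start clusters in COLO-205, DU-145 and OVCAR-3 each.

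Distal peaks were dense around *ELF3* in the same lines. COLO-205 had 12, DU-145 11, OVCAR-3 12 and SKOV-3 0 within a window of 109.2 kb. That is 11, 10.1 and 11 peaks per 100 kb, at percentiles 92.0, 90.2 and 92.6 of genes. The flanks within 1 Mb were dense as well, with 63.5 peaks per Mb in COLO-205, 41.5 in DU-145 and 40 in OVCAR-3, against 31.7, 28.0 and 28.2 over the whole genome, and their part in the distal counts was not tested. Nearly all lay downstream, 12 of 12 for COLO-205, 8 of 11 for DU-145 and 11 of 12 for OVCAR-3. The downstream element at chr1:201986510-201988601 carried the strongest distal peak of COLO-205 (−log10 q 35.1) and of DU-145 (32.9) and a peak of 18.9 in OVCAR-3. In OVCAR-3 the strongest was at chr1:202003295-202004769, with a −log10 q of 65.0, against 8.9 in COLO-205 and 16.1 in DU-145. Of 20 distal regions around the gene, 3 were shared by 3 lines and 6 by 2 lines. The window also holds *RNPEP* and *TIMM17A*, and which gene an element acts on was not measured.

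*EHF*, a neighbour of *ELF5* on chromosome 11 and like it an epithelial factor, was marked in OVCAR-3 only (ENSG00000135373.13_8, chr11:34642640-34684835, plus strand). Of its promoter peaks, 1 had a −log10 q of 10.5 and a fold of 5.12, and the other, at an internal start, 27.2 and 8.93 with 43 tags, or 1.26 tags/M (0.91 to 1.69). Neither reached the canonical start, from which the nearer of them lay 2013 bp away. Its q stood at percentile 33.7 of marked genes and its tags/M at percentile 15.4. The flanks within 1 Mb held 54.0 peaks per Mb in OVCAR-3, against 9.0 to 13.0 in the other lists, and chromosome 11 had 1.54 times the density of the median chromosome in OVCAR-3; their part in the OVCAR-3 peaks was not tested. In the other lines the nearest peak to the canonical start was 20282 bp away for SKOV-3, 124734 bp for COLO-205 and 294596 bp for DU-145. Distal peaks numbered 6 in OVCAR-3, of which 4 were inside the gene, the strongest at chr11:34655975-34656221 (−log10 q 18.6). SKOV-3 had 1 (11.6), at 20376 bp upstream by its summit. No distal region of *EHF* was shared between lines. With a promoter window of 500 bp, or with equal numbers of peaks in every list, *EHF* had a promoter peak in no line.

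*ELF5*, a factor of mammary and other glandular epithelium, had no promoter peak in any line (ENSG00000135374.11_8, chr11:34500338-34546740, minus strand). It had distal peaks in 3 lines, 2 for COLO-205, 4 for OVCAR-3 and 1 for SKOV-3, and the window also holds *CAT*. The stronger COLO-205 peak, chr11:34458488-34458705, had a −log10 q of 7.76. The intronic element chr11:34523579-34524357 was the strongest of them in OVCAR-3, with 65 tags, a fold of 12.5 and a −log10 q of 49.8. In SKOV-3 a peak at the same place had 31 tags, a fold of 8.93 and a −log10 q of 19.5. These are 1.9 tags/M (1.47 to 2.42) in OVCAR-3 and 1.38 (0.94 to 1.96) in SKOV-3, with intervals that overlap. The OVCAR-3 peak ranked at percentile 95.7 of that line's distal peaks and the SKOV-3 peak at 89.8. It was the only distal region of the 10 genes that SKOV-3 shared with another line, and COLO-205 and DU-145 had no peak there. The element was thus marked in both ovarian lines while the 3 start clusters of the gene were marked in neither.

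*SPDEF*, the prostate-derived ETS factor of secretory cells, had a promoter peak in DU-145 only (ENSG00000124664.11_11, chr6:34505579-34524110, minus strand). That peak was weak, with 41 tags, 1.14 tags/M (0.817 to 1.55), a fold of 2.89 and a −log10 q of 7.1, at percentile 5.61 of marked genes by q and 12.9 by tags/M. A stronger distal peak lay 4732 bp upstream by its summit, with a −log10 q of 17.6. COLO-205 had 3 distal peaks with a −log10 q of 6.75 to 7.39, of which 2 were inside the gene. OVCAR-3 and SKOV-3 had no peak at all within 50 kb, the nearest being 101705 bp and 74078 bp from the canonical start. None of the 5 distal regions was shared, and the window also holds *ILRUN* and *PACSIN1*. The flanks within 1 Mb held 92.0 peaks per Mb in DU-145, 11 in COLO-205, 30 in OVCAR-3 and 10.5 in SKOV-3, and the part of this density in the DU-145 peak was not tested.

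*ETS1*, the founding member of the family and a factor of lymphoid, endothelial and invasive cells, was marked away from its canonical start (ENSG00000134954.14_13, chr11:128328656-128457453, minus strand). From that start the nearest peak was 39840 bp away for COLO-205, 40453 bp for DU-145, 64813 bp for OVCAR-3 and 65239 bp for SKOV-3. The internal starts at chr11:128392096-128392205, from which 4 coding transcripts run, had a peak in DU-145 (−log10 q 19.4, fold 4.03), OVCAR-3 (13.4, 4.07) and SKOV-3 (11.9, 4.69) and none in COLO-205. At these shared starts the level was 1.94 tags/M (1.52 to 2.46) for DU-145, 1.35 (0.985 to 1.79) for OVCAR-3 and 1.65 (1.16 to 2.28) for SKOV-3, and the intervals overlapped. The octamer shown above lies upstream of these starts. In DU-145 a second internal start, at chr11:128375289-128375289, was also marked. The DU-145 peak there, chr11:128376270-128377774, was the strongest at the gene (−log10 q 27.5, fold 8.83), and it entered the 1 kb window only with its edge. Its 1.25 tags/M (0.912 to 1.67) is the DU-145 value in the plot of promoter levels, so the plot sets a different start in DU-145 beside the shared starts of the other lines. *ETS1* and *ETS2* were the 2 genes of the set marked in SKOV-3.

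DU-145 had 10 distal peaks around *ETS1*, 9 of them inside the gene, where COLO-205 and OVCAR-3 had 2 each and SKOV-3 0. Both OVCAR-3 peaks fell on DU-145 peaks, at chr11:128363049-128363465 (−log10 q 15.4 in DU-145 and 11.8 in OVCAR-3) and at chr11:128367018-128367740 (13.8 and 7.71). The strongest of COLO-205, chr11:128497293-128497528 (11.2), lay upstream and was not shared. The remaining shared region, chr11:128382352-128382723, joined COLO-205 (7.99) and DU-145 (5.23). In DU-145 the window of 228.8 kb held 4.37 distal peaks per 100 kb, at percentile 76.0 of genes, so this is not a dense locus by the measure of the whole genome.

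*ETS2*, an ERK-responsive factor found in many cell types, was marked at its canonical start in all 4 lines (ENSG00000157557.13_10, chr21:40177107-40196879, plus strand). The fold was 8.36 for COLO-205, 8.23 for DU-145, 10.8 for OVCAR-3 and 6.36 for SKOV-3, and the −log10 q 41.1, 51.7, 68.2 and 17.5. The summits fell between 188 and 245 bp after the canonical start in all 4 lines. Levels in tags/M were 2.48 (1.95 to 3.12) in COLO-205, 2.64 (2.14 to 3.23) in DU-145, 2.98 (2.43 to 3.62) in OVCAR-3 and 1.74 (1.24 to 2.38) in SKOV-3. In order of level, OVCAR-3, DU-145 and COLO-205 had overlapping intervals, as did SKOV-3 with COLO-205 and DU-145, and the interval of SKOV-3 ended below that of OVCAR-3. Ranked by −log10 q within its own list, *ETS2* stood at percentile 95.4 for COLO-205, 92.9 for DU-145, 69.2 for OVCAR-3 and 64.2 for SKOV-3, so the order within lists was not the order of the levels. The internal starts at chr21:40181327-40181560 had a peak in DU-145 only (−log10 q 17.5, fold 6.2).

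The distal landscape of *ETS2* was less even. DU-145 had 30 distal peaks, OVCAR-3 17, COLO-205 3 and SKOV-3 0 in a window of 119.8 kb. The DU-145 peaks came to 25 per 100 kb, at percentile 98.3 of genes, and covered 13.0% of the window. OVCAR-3 had 14.2 per 100 kb, at percentile 94.5. No other protein-coding gene reaches into the window. Around it, within 1 Mb on either side, the lists held 45.5 peaks per Mb in DU-145 and 74.5 in OVCAR-3, against 28.0 and 28.2 genome-wide, and chromosome 21 had 1.54 and 1.63 times the peak density of the median chromosome. Of the 31 distal regions, 11 were in 2 lines and 2 in 3 lines. OVCAR-3 added 1 region of its own, COLO-205 1 and DU-145 16. The strongest were inside the gene, in DU-145 at chr21:40189388-40190540 (−log10 q 36.6, fold 10.7) and in OVCAR-3 at chr21:40191309-40191927 (57.8, 14.2). Each of these regions had a peak in the other of these lines too. Upstream, chr21:40168435-40169732 and chr21:40170789-40171195 were marked in COLO-205, DU-145 and OVCAR-3, with a −log10 q of 8.69 to 15.3.

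In the PEA3 group, *ETV1* had no promoter peak in any line (ENSG00000006468.15_12, chr7:13930854-14031050, minus strand). It had 1 distal peak in COLO-205 (22 tags, −log10 q 11.6) and 1 in OVCAR-3 (22 tags, 11.5), 13278 bp upstream and 86004 bp downstream of its canonical start. In DU-145 the nearest peak was 907430 bp from the canonical start and in SKOV-3 5127420 bp. The flanks within 1 Mb held 0 to 3.5 peaks per Mb in the 4 lists, and chromosome 7 was sparse in all 4, at 0.0836 to 0.708 times the density of the median chromosome. Whether the absence of peaks at *ETV1* goes with the gene or with the chromosome cannot be told apart here.

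*ETV4*, the PEA3 factor itself, had promoter peaks in COLO-205, DU-145 and OVCAR-3 (ENSG00000175832.13_10, chr17:41605212-41656988, minus strand). The fold was 4.92 for COLO-205, 3.06 for DU-145 and 8.94 for OVCAR-3, with a −log10 q of 25.1, 10 and 61.7. Levels in tags/M were 2.45 (1.92 to 3.08), 1.47 (1.1 to 1.93) and 3.07 (2.51 to 3.72). The interval of DU-145 ended below that of OVCAR-3 and met that of COLO-205. By −log10 q these peaks stood at percentile 84.2 for COLO-205, 14.7 for DU-145 and 65.1 for OVCAR-3 of marked genes, and by tags/M at percentile 90.7, 27 and 64.1. The nearest SKOV-3 peak lay 125848 bp from the canonical start. The most upstream start, chr17:41656988-41656988, also had a peak in OVCAR-3 (−log10 q 38.6) and a weaker one in DU-145 (6.74), and the most downstream start had one in OVCAR-3 (16.6) and in COLO-205 (7.83). COLO-205 had 15 distal peaks, DU-145 8, OVCAR-3 17 and SKOV-3 0. Chromosome 17 was dense in every list, at 2.31 to 2.78 times the median chromosome, and the window also holds *DHX8*. The flanks within 1 Mb held 117 peaks per Mb in COLO-205, 126 in DU-145 and 73.5 in OVCAR-3. The strongest distal peaks lay in COLO-205 at chr17:41668071-41668315 (−log10 q 10.3), in DU-145 at chr17:41574863-41575168 (11.1) and in OVCAR-3 at chr17:41655444-41655901 (27.2), all inside *DHX8* and the last also in an *ETV4* intron. Of 36 distal regions, 4 were shared by 2 lines and none by 3.

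*ETV5* had its strongest promoter in DU-145 (ENSG00000244405.8_11, chr3:185764103-185828107, minus strand). There 125 tags gave a fold of 8.3 and a −log10 q of 67.8, at percentile 97.7 of marked genes. COLO-205 had a fold of 3.59 and a −log10 q of 9.02, and OVCAR-3 3.04 and 6.89, at percentiles 31.5 and 3.06 by q and 38.9 and 9.82 by tags/M. In tags/M DU-145 had 3.47 (2.89 to 4.14), COLO-205 1.28 (0.902 to 1.75) and OVCAR-3 1.05 (0.737 to 1.46), so the interval of DU-145 lay above both others, which overlapped. Among the 3 marked lines, DU-145 was thus the highest at *ETV5* and the lowest at *ETV4*. The most upstream start, chr3:185828107-185828107, also had a peak in DU-145 (−log10 q 23.7) and in OVCAR-3 (6.77). Chromosome 3 had 2.19 times the density of the median chromosome in OVCAR-3 and 0.564 times in DU-145, and the part of this in the levels was not tested. Distal peaks numbered 9 for COLO-205, 2 for DU-145, 4 for OVCAR-3 and 0 for SKOV-3, so that DU-145 had the fewest of the 3 marked lines. The strongest was intronic in COLO-205, chr3:185813573-185813831 (−log10 q 18.4). Those of DU-145, chr3:185854451-185854838 (8.61), and OVCAR-3, chr3:185869612-185869855 (9.13), lay inside the neighbouring gene *DGKG*.

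*ERG*, an endothelial factor, spans 281756 bp (ENSG00000157554.20_13, chr21:39751949-40033704, minus strand). Its canonical start was unmarked, and its most upstream starts, chr21:40033618-40033704, had a peak in OVCAR-3 (52 tags, fold 6.21, −log10 q 23.7) and a weak one in DU-145 (30 tags, 3.46, 7.06). Levels in tags/M were 1.52 (1.14 to 1.99) and 0.833 (0.562 to 1.19), with intervals that just overlap. In q these peaks stood at percentiles 29.9 and 5.43 of marked genes. The same peaks also reached the window of the start chr21:40032591-40032591. An internal start, chr21:39821028-39821028, had a peak in OVCAR-3 only (fold 8.0, −log10 q 17.9). COLO-205 and SKOV-3 had no promoter peak. OVCAR-3 had 34 distal peaks, 27 of them inside the gene, where DU-145 had 11, COLO-205 7 and SKOV-3 0. The strongest, chr21:39810572-39811598, had 100 tags, a fold of 13.9 and a −log10 q of 78.8, at percentile 98.5 of distal peaks of OVCAR-3, and was in no other line. The OVCAR-3 window of 381.8 kb held 8.91 peaks per 100 kb, at percentile 90.7 of genes, and the flanks within 1 Mb held 80.0 peaks per Mb in OVCAR-3 and 80.0 in DU-145 as well. The strongest distal peak of DU-145, chr21:39724206-39724499 (−log10 q 19.3), lay downstream of the gene and that of COLO-205, chr21:39948499-39948801 (11.6), in an intron, and OVCAR-3 had a peak at both places. Of 47 distal regions, 29 were in OVCAR-3 only. Of the endothelial markers *CDH5*, *KDR*, *TEK* and *TIE1*, 0 of 4 had a promoter peak in OVCAR-3, beside 60.5% of all genes. In DU-145 1 of 4, *CDH5*, had a weak one (−log10 q 3.27), beside 59.9% of all genes. COLO-205 and SKOV-3 had 0 of 4 each, beside 51.2% and 31.6%.

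**Figure D3:**
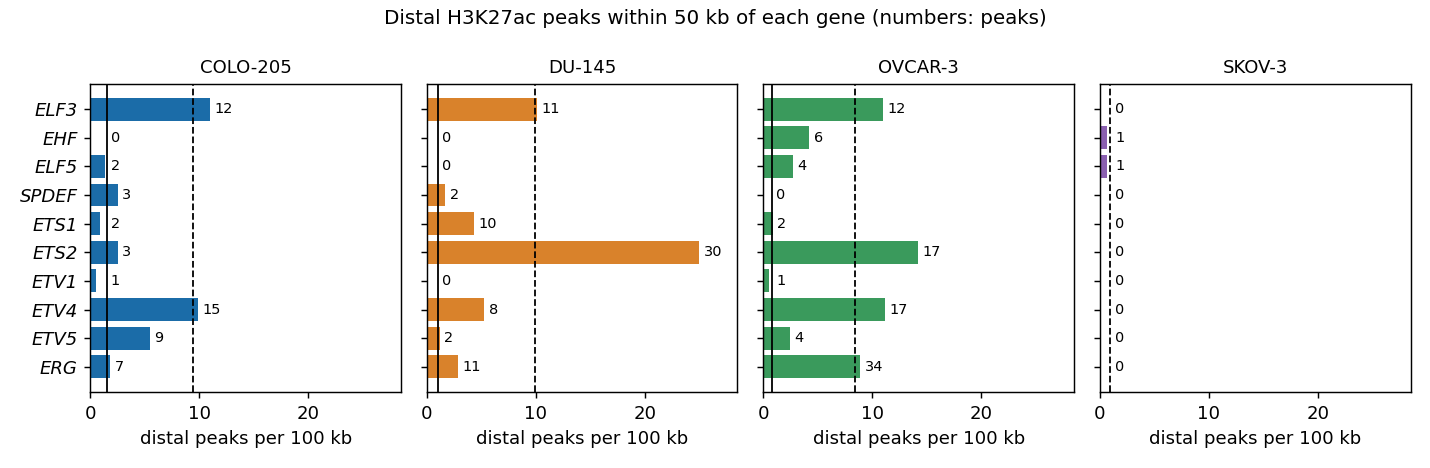
Distal H3K27ac peaks per 100 kb (horizontal axis) for each gene, with the number of peaks beside each bar; the solid line is the median and the dashed line percentile 90 over protein-coding genes of that line. *ETS2* in DU-145 reaches 25 per 100 kb with 30 peaks, and SKOV-3 has 1 peak at *EHF* and 1 at *ELF5*.

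**Figure D4:**
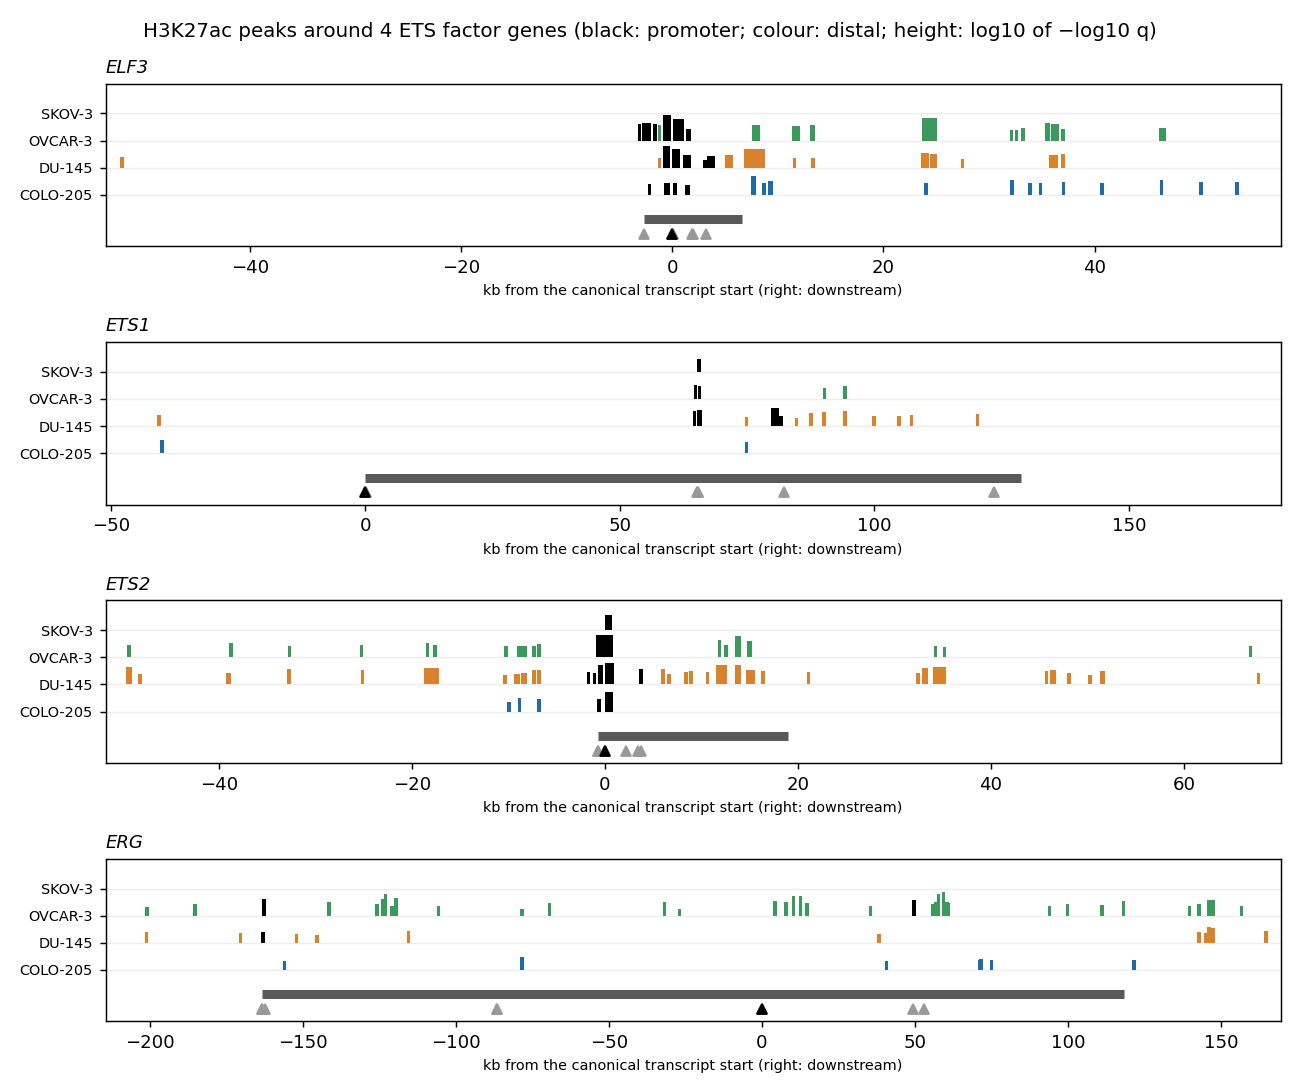
Peaks around *ELF3*, *ETS1*, *ETS2* and *ERG* by distance in kb from the canonical start in the direction of transcription; black peaks are at a start of the gene, coloured ones are distal, and height is the log10 of −log10 q. Narrow peaks are drawn at a minimum width; the grey bar is the gene body and triangles are annotated starts, the black one canonical, which at *ETS1* and *ERG* has no black peak above it.

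At least 1 distal peak was found at 9 of the 10 genes for COLO-205 (73.6% of all genes), 7 for DU-145 (63.5%), 9 for OVCAR-3 (59.3%) and 2 for SKOV-3 (21.8%). Their distal peaks summed to 54 for COLO-205, 74 for DU-145, 97 for OVCAR-3 and 2 for SKOV-3. With equal numbers of peaks in every list the sums were 4, 11, 8 and 2, so the order of DU-145 and OVCAR-3 turned. The counts that follow are of the full lists. By number, *ETV4* with 15 led in COLO-205, *ETS2* with 30 in DU-145 and *ERG* with 34 in OVCAR-3, but the windows differ in length. Per 100 kb, *ELF3* led in COLO-205 (11, against 9.88 for *ETV4*), and *ETS2* led in DU-145 (25) and in OVCAR-3 (14.2, against 8.91 for *ERG*). Per 100 kb, the median over the 10 genes was 2.17, 2.28, 3.48 and 0, beside 1.49, 0.981, 0.804 and 0 over all genes. Joined across lines, these peaks formed 179 regions, of which 143 (79.9%) were in 1 line, 31 in 2, 5 in 3 and 0 in 4. For the 133177 regions counted over all protein-coding genes, 87.5% were in 1 line. The 5 regions in 3 lines belonged to *ELF3* (3) and *ETS2* (2). The windows of *EHF* and *ELF5* overlap at their ends, and no peak was counted at both. Near the 50 kb limit, the outermost *ELF3* peak of DU-145 lay 49318 bp from the gene and the next one 59364 bp, and at *ERG* in OVCAR-3 a peak 52129 bp away stayed out.

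Among the 18 other ETS genes, 10 had a promoter peak in each of COLO-205, DU-145 and OVCAR-3, and 7 had one in SKOV-3, near the shares of all genes (51.2%, 59.9%, 60.5% and 31.6%). The 6 marked in all 4 lines, where 25.2% of all genes were, were *ELF2*, *ELF4*, *ELK4*, *ERF*, *ETV6* and *GABPA*. Of these, *GABPA* is the broadly expressed activator and *ERF* and *ETV6* are repressors. The 5 marked in none, where 24.9% of all genes were, were *ETV7*, *FLI1*, *SPI1*, *SPIB* and *SPIC*. Of 10 genes of ERK output, PEA3 regulation or fusions, all 10 were marked in COLO-205, DU-145 and OVCAR-3 and 9 in SKOV-3. The same shares of all genes (51.2%, 59.9%, 60.5% and 31.6%) stand beside these counts. In all 4 lines 9 of the 10 were marked, against 25.2% of all genes, and the fusion partner *TMPRSS2* was the other. Among them *CIC* and *COP1* were marked in all 4 lines, as were the ERK phosphatase genes *DUSP4* and *DUSP6* and the ERK feedback genes *SPRY2* and *SPRY4*. *DUSP6* had 2.48 tags/M for COLO-205, 3.25 for DU-145, 3.63 for OVCAR-3 and 3.12 for SKOV-3, so it was marked in SKOV-3 where *ETV1*, *ETV4* and *ETV5* were not. *TMPRSS2*, a partner of *ERG* and of PEA3 genes in prostate cancer fusions, was marked in COLO-205 (−log10 q 38.9), DU-145 (6.1) and OVCAR-3 (10.8) and not in SKOV-3.

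The labels of the lines were set against marker genes in the same way. Of 7 epithelial markers, COLO-205 and OVCAR-3 had 7 marked, DU-145 6 and SKOV-3 3, where the keratin genes *KRT8*, *KRT18* and *KRT19* were marked and *CDH1*, *EPCAM*, *ESRP1* and *GRHL2* were not. Of 5 mesenchymal markers, 1, 2, 2 and 4 were marked. SKOV-3, the line with no promoter peak at *ELF3*, thus also had the fewest epithelial markers marked, but 3 of 7 is no lower than the 31.6% of all genes in that list. Colon markers were marked at 4 of 6 genes in COLO-205, beside 51.2% of all genes in that list (*CDX1* and *CDH17* in no line). Of the 4, *LGALS4* was also marked in DU-145 and in OVCAR-3. Ovarian carcinoma markers were marked at 5 of 5 genes in OVCAR-3 but at 3 of 5 in COLO-205 and in DU-145 each and 2 of 5 in SKOV-3. Against the shares of all genes with a promoter peak (51.2% for COLO-205, 59.9% for DU-145, 60.5% for OVCAR-3 and 31.6% for SKOV-3), the ovarian counts of COLO-205, DU-145 and SKOV-3 are near the background and do not set these lines apart. Of 4 blood markers, 0 had a promoter peak in any line, where 24.9% of all genes had none.

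The genes whose promoter levels over the 4 lines were closest to those of a marked member were named as well, by the distance of log2(tags/M + 1) over 4 values. For *ELF3* they were *OGA*, *BRAF* and *OTUB1* (distance 0.0815 to 0.107), for *ETS1* *TTBK2*, *DDHD2* and *VRK3* (0.104 to 0.151), for *ETV4* *ABHD12*, *JUP* and *EVPL* (0.0727 to 0.129) and for *ERG* *CARF*, *NATD1* and *MAP7D3* (0.0277 to 0.0404). For *EHF* and *SPDEF*, with 1 marked line, the nearest genes were at distance 0, among them *MPPED2* and *PRR29* for *EHF* and *RIMKLA*, *TTC24* and *HLX* for *SPDEF*. With 1 library a line and 4 points a gene, such nearness is a description of these lists.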

How the data were processed

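H3K27ac ChIP-seq libraries of the 4 lines, 1 per line, were analysed. The authors mapped reads to hg19 with Bowtie2 2.1.0 and called narrow peaks per library with MACS2 2.1.0.20150603 at a q-value below 0.001, as the study's methods and processing notes give it. The methods name merging of peaks less than 350 bp apart, and the deposited lists hold 2070 to 16181 closer neighbours, so unmerged peaks were used. For each peak the authors deposited a score (10 times −log10 q, cut to a whole number), a fold enrichment (a ratio of summit pileup to local background), a −log10 p, a −log10 q and a summit offset. These are values within a library, not scaled between libraries.

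The whole-number pileup was solved from fold and −log10 p within 0.001 for 100% of peaks, and tags per library from the lowest background, the narrowest peak width and 2700000000 genome positions. Simulated summits (20000 for COLO-205, DU-145 and OVCAR-3 each, 14001 for SKOV-3) were recovered at 100%. This checked the pileup only, and the tags per library remain an estimate. Levels are pileups scaled to 1000000 tags (tags/M) with exact Poisson 95% intervals. A peak in the lists had at least 11 to 14 tags, 0.351 to 0.491 tags/M, and an absent peak means only that no peak was called. Peaks just above the q threshold had a median of 0.982 tags/M in SKOV-3 and 0.585 to 0.638 in the other lists. A weak peak of another list can thus lie below the level usually called in SKOV-3. Genes and starts came from GENCODE 44 lifted to GRCh37 and sequences from GRCh37, the build of the peaks. Overlap was at least 1 bp. Canonical starts were known for 19863 genes. Printed sequences overlap no annotated UTR.

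The genes, gene lists and motifs were chosen with earlier results of these data known. The naming rule took all 10 genes, an account of every start cluster, the distal peak of highest −log10 q per gene and line and, for genes with a promoter peak in 1 to 3 lines, the 3 genes nearest in level, of which 1 for *EHF* has no symbol and is not named. One endothelial marker, *PECAM1*, was not matched in the annotation. Results were recomputed with a −log10 q minimum of 5 and of 10, equal numbers of peaks, merging, promoter windows of 500 and 2500 bp, coding transcripts only and distances of 20 and 100 kb. Leaving out SKOV-3 was added after the data were seen. No test was made. The software was samtools 1.23.1 and pysam 0.24.0, with pandas 2.3.3, scipy 1.17.1, numpy 2.4.6 and matplotlib 3.10.9 under Python 3.11.15. The prostate markers and the genes nearest in level to *ETV5* are not reported here. The mutation tables and RNA-seq were not analysed here.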

Additional observations from a re-analysis of the deposited data

How the results depend on the processing

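There is 1 library per line, so the limits are those of single lists. Of 92 recomputed counts over the 10 genes, 70 stayed within 1.5 times the value given. At a −log10 q of at least 10, distal peaks fell to 20 in COLO-205, 33 in DU-145 and 49 in OVCAR-3, and genes with a promoter peak in COLO-205 to 2. With the 14001 strongest peaks of every list, distal peaks were 4 in COLO-205, 11 in DU-145 and 8 in OVCAR-3, genes with a distal peak 2, 4 and 4, and genes with a promoter peak 2, 4 and 3, against 21.8%, 37.8% and 38.0% of all genes, and those of SKOV-3 did not change. Within 20 kb there were 28 distal peaks in COLO-205, 45 in DU-145 and 1 in SKOV-3, at 1 gene. Within 100 kb there were 96 in COLO-205, 153 in OVCAR-3 and 6 in SKOV-3, at 4 genes. Without the SKOV-3 list, 4 genes had a promoter peak in every line in place of 1.

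Of 70 recomputed counts of marked lines per gene, 62 stayed within that range. *EHF* had 0 marked lines with a promoter window of 500 bp and with equal numbers of peaks. At a −log10 q of at least 10, *ERG* and *ETV5* kept 1 line each and *SPDEF* 0, and with equal numbers of peaks *ERG* and *SPDEF* had 0 and *ETV5* 1. *ETS2* kept its peak in all 4 lines under every setting tried. No paired analysis was possible because each line has 1 library.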
